A study of Mus musculus with 6 samples.

Results

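The genes described here encode acute-phase proteins and the proteins by which cells sense bacterial endotoxin. They are 10 genes of the 25683 in the deposited table, taken by name: Saa3, Saa1, Saa2, Lcn2, Hp, Lbp, Ptx3, Cd14, Tlr2 and Tlr4. The members were picked with the difference between genotypes already in view, so their values in that comparison are a description and carry no test. Bulk poly(A) RNA-seq had been done on 6 libraries of mouse aortic cells whose label calls them primary vascular smooth muscle. Libraries 1, 2 and 3 came from Nt5e knock-out cells and libraries 4, 5 and 6 from Nt5e wild-type cells. The protein made from Nt5e is CD73, an ectoenzyme that turns AMP into adenosine. Cells of both genotypes were grown at 10% serum and then held at 0.5% serum for 48 h, and the labels name no endotoxin or cytokine treatment. The labels give neither the age of the animals nor how many animals or cultures the libraries stand for, so the spread between libraries may be technical.

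The acute phase is the change in plasma proteins that follows infection or injury. Interleukin-6, interleukin-1 and related cytokines drive it through STAT3, C/EBP and NF-kappaB factors, mainly in hepatocytes but also in stromal and epithelial cells. Serum amyloid A proteins travel on high-density lipoprotein, lipocalin 2 withholds iron by binding bacterial siderophores, and haptoglobin binds free haemoglobin. Endotoxin, the lipopolysaccharide of Gram-negative bacteria, is loaded by LBP onto CD14, which passes it to TLR4 and its partner MD-2. TLR2 works with TLR1 or TLR6 as the receptor for bacterial lipopeptides, and pentraxin 3 is a secreted pattern-recognition protein.

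Libraries held between 19919095 and 23669252 exon reads. Knock-out libraries 2 and 3 were nearly identical to each other, as were wild-type libraries 4 and 6, with a median absolute difference of 0.08 log2 CPM over 12660 tested genes in each pair. Their counts differed by a chi-square of 3.33 and 3.35 per degree of freedom, more than counting alone gives, and each library was kept as a sample. This does not show that they came from separate cultures, and values with each pair summed to 1 sample are given below where they end a call. Knock-out library 1 stood apart, at a median difference of 0.38 log2 CPM from knock-out library 2 and of 0.32 to 0.33 from the wild-type libraries. Nt5e, the targeted gene, had 22, 1 and 2 reads in knock-out libraries 1, 2 and 3, against 615, 688 and 486 in wild-type libraries 4, 5 and 6. The smooth muscle label was only partly borne out by markers. Acta2, the contractile actin, was measured at 73.8, 546 and 525 CPM (reads scaled to library size by TMM) in knock-out and at 69.2, 51.9 and 101 CPM in wild-type libraries, whereas Myh11, the smooth muscle myosin heavy chain, had 5, 54 and 67 reads against 3, 3 and 1. Des and Myocd had at most 5 reads over the libraries of either genotype.

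Serum amyloid A RNA was abundant in the wild type and low in the knock-out, and nearly all of it was Saa3, the form that in mice is made largely outside the liver. Saa3 (ENSMUSG00000040026, chromosome 7, 46711998 to 46715700, minus strand, GRCm38) stood at 13.8, 21.1 and 14.6 CPM in the knock-out libraries 1, 2 and 3, against 1114, 2007 and 749 CPM in wild-type libraries 4, 5 and 6. All 3 knock-out libraries were low, knock-out library 1 included, and wild-type library 5 was the highest, at 2.15 times the mean of wild-type libraries 4 and 6. Saa3 averaged 16.5 ± 4.00 CPM in the knock-out and 1290 ± 647 CPM in the wild type (SD, n = 3 each), a fitted log2 fold change of -6.29 ± 0.48 (SE). By RPKM, the length- and depth-scaled level that the authors give, Saa3 ranked 7814, 6442 and 7636 in knock-out libraries and 118, 55 and 165 in wild-type libraries among the 14025 to 14708 genes with a value above 0.

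Saa1 and Saa2, which encode the circulating forms made by the liver, were close to absent in both genotypes. Saa1 (ENSMUSG00000074115) had 1, 0 and 0 reads in knock-out libraries against 17, 12 and 12 in wild-type libraries, a level 37.9-fold lower in the knock-out with a 95% counting interval of 6.43 to 1532. Saa2 (ENSMUSG00000057465) had no read in the knock-out and 2, 7 and 3 reads in the wild type, at least 3.69-fold lower when the knock-out group is set at 3 reads. These intervals and bounds cover counting error only. Saa1 and Saa2 are near-identical copies, so reads could be split between them, although every exon read assigned to either was counted as unique. The wild-type libraries held 89981 reads of Saa3, 41 of Saa1 and 12 of Saa2.

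The 3 genes lie within 42.3 kb of chromosome 7, with Saa4 between them. Saa4 had no read in the knock-out libraries, against 6, 7 and 2 in the wild-type libraries. The flanking genes were looked up after the values of the cluster were seen, and none of those tested passed. Saal1, next to Saa3, stood at 17.04 ± 1.87 CPM in the knock-out and 16.5 ± 1.18 CPM in the wild type (log2 fold change 0.04, edgeR adjusted p = 0.818), and Hps5, next to Saa2, at 46.2 ± 6.54 CPM in the knock-out and 42.4 ± 1.00 CPM in the wild type (0.12, edgeR adjusted p = 0.449). Gtf2h1, beyond Hps5, stood at 62.8 ± 16.6 CPM in the knock-out and 40.5 ± 2.73 CPM in the wild type (0.63, edgeR adjusted p = 0.0690).

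The 250 bases before the RefSeq start of each serum amyloid A gene are shown because Saa1 and Saa2 are almost the same there while Saa3, the gene that was read, is not. They are RefSeq sequences of GRCm38.p6, read 5′ to 3′ on the gene's strand, at chr7:46715677-46715926 (minus strand) for Saa3, chr7:46742981-46743230 (minus strand) for Saa1 and chr7:46751583-46751832 (plus strand) for Saa2. That start is the one in the deposited table for Saa1, and lies 24 bases inside the deposited gene for Saa3 and 43 bases inside it for Saa2, so those windows run into the deposited gene. Capitals mark matches, on either strand, to a C/EBP motif searched as TTNNGNAA or to a kappaB motif searched as GGG and CC parted by any 5 bases. No 2 matches overlap in these windows.
Saa3: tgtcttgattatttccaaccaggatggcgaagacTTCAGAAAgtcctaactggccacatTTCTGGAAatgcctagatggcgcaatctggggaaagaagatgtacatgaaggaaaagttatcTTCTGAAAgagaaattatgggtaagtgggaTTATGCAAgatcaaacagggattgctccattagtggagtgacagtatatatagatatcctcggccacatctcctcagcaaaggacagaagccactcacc
Saa1: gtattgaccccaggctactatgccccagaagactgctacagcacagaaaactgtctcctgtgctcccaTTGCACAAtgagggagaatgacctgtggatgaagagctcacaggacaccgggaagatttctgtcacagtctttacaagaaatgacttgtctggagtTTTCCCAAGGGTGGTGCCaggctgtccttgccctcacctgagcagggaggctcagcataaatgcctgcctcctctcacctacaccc
Saa2: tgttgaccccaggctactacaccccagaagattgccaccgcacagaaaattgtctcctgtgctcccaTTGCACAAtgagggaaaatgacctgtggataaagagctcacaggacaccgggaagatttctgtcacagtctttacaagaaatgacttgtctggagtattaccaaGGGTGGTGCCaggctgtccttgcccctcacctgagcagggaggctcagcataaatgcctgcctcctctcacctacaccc
Aligned over this window, Saa1 and Saa2 were 94.8% identical, and Saa3 matched Saa1 at 48.2% and Saa2 at 48% of aligned columns. Saa3 held 4 C/EBP matches and no kappaB match, Saa1 held 2 and 1, and Saa2 held 1 and 1. In Saa1 the C/EBP match nearer the start adjoins the kappaB match in the long run of capitals. Of 32851 mouse promoter windows of this length, 36.85% held a C/EBP match and 45.8% a kappaB match, so neither motif is rare. No STAT match, searched as TTCNNNGAA and held by 7.02% of windows, was in any of these windows.

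Lcn2, the siderophore-binding lipocalin, was low in the knock-out to an extent that differed between its libraries. Lcn2 (ENSMUSG00000026822, chromosome 2, 32384633 to 32388252, minus strand) had 39, 1 and 3 reads in knock-out libraries 1, 2 and 3, against 1016, 1844 and 832 in wild-type libraries 4, 5 and 6. These are 1.69, 0.0471 and 0.160 CPM against 45.3, 75.8 and 38.5 CPM. The groups did not overlap, and knock-out library 1 was 16.3 times the mean of knock-out libraries 2 and 3. The fitted log2 fold change was -6.32 ± 0.94, and -8.98 without knock-out library 1.

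The window before the RefSeq start of Lcn2, chr2:32387740-32387989 (minus strand), lies wholly inside the deposited gene, whose start is 513 bases further upstream. It held 1 C/EBP and 1 kappaB match, and is shown beside those of the serum amyloid genes since Lcn2 was low in the same libraries.
Lcn2: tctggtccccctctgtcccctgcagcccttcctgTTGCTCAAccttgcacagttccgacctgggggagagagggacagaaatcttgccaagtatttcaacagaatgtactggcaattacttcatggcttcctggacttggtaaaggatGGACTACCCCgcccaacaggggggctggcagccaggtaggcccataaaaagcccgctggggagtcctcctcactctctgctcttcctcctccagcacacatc
Hp, which encodes haptoglobin (ENSMUSG00000031722, chromosome 8, 109575128 to 109579172, minus strand), stood at 4.93, 4.52 and 3.83 CPM in the knock-out libraries, against 211, 428 and 176 CPM in wild-type libraries. Wild-type library 5 was again the highest, at 2.21 times the mean of the other two. The fitted log2 fold change of Hp was -5.93 ± 0.43. Promoter sequences of Hp, Lbp, Cd14 and Tlr4 were not used here. The windows of Ptx3 and Tlr2, not shown, each held 1 C/EBP match. Ptx3 held 0 kappaB matches and Tlr2, which was higher in the knock-out, held 2 that overlap. Whether any match bears on the levels was not tested.

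Lbp, the plasma protein that carries endotoxin to CD14, varied little between the wild-type libraries. Lbp (ENSMUSG00000016024, chromosome 2, 158306493 to 158332852, plus strand) stood at 25.5, 38.5 and 31.6 CPM in the knock-out libraries, against 931, 968 and 882 CPM in wild-type libraries. The mean was 31.9 ± 6.49 CPM in the knock-out and 927 ± 43.2 CPM in the wild type (SD, n = 3 each), and the log2 fold change was -4.86 ± 0.18. Wild-type library 5, in which Saa3, Lcn2 and Hp were highest, held 1.07 times as much Lbp as the mean of wild-type libraries 4 and 6.

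Ptx3, the secreted pentraxin that binds microbes and complement, was a low transcript that separated the knock-out libraries and not the genotypes. Ptx3 (ENSMUSG00000027832, chromosome 3, 66219910 to 66225805, plus strand) had 63, 0 and 1 reads in knock-out libraries 1, 2 and 3, against 65, 45 and 46 in wild-type libraries. Knock-out library 1 lay within the wild-type range in CPM, and the other knock-out libraries were at or next to 0. The log2 fold change of -1.28 ± 1.42 became -6.23 without knock-out library 1.

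**Figure D1:**
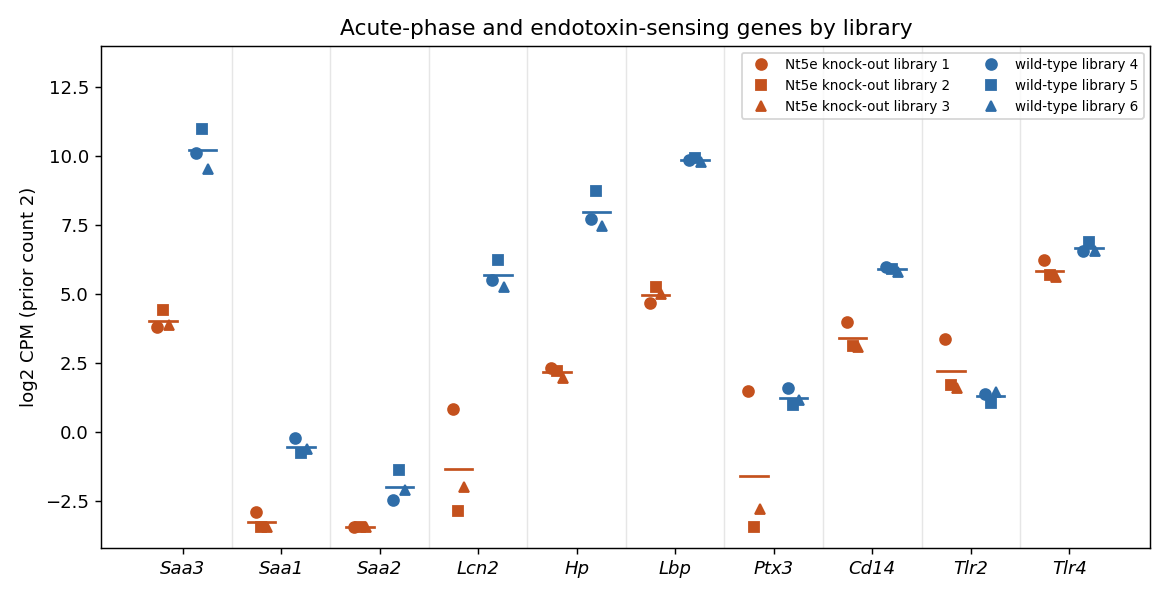
Level of each gene in each library, as log2 CPM with a prior count of 2. Orange points left of each gene's centre are knock-out libraries 1, 2 and 3, blue points right of it wild-type libraries 4, 5 and 6, and bars are group means. Saa3, Lcn2, Hp and Lbp have widely separated groups, Ptx3 and Tlr2 have knock-out library 1 apart from the other knock-out libraries, and Tlr4 differs least among the separated genes.

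Of the endotoxin receptors on the cell, Cd14 differed more than Tlr4. Cd14 (ENSMUSG00000051439, chromosome 18, 36725067 to 36726798, minus strand), which takes up endotoxin from LBP, stood at 15.8, 8.48 and 8.41 CPM in the knock-out libraries 1, 2 and 3, against 63.4, 59.6 and 56.1 CPM in wild-type libraries. Every knock-out value was below every wild-type value, and knock-out library 1 was 1.87 times the mean of knock-out libraries 2 and 3. The log2 fold change was -2.45 ± 0.27, and -2.83 without knock-out library 1. Chromosome 18 had 310 genes with a mean of at least 50 reads. Their median difference, knock-out library 1 minus knock-out libraries 2 and 3, was -0.51 log2 CPM, opposite to Cd14. That median was -0.05 for chromosome 2, 0.06 for 3, -0.24 for 4, -0.21 for 7 and 0.11 for 8. It had the sign of the same difference in Saa3, Lbp, Hp, Ptx3 and Tlr2, and the opposite sign to Lcn2 and Tlr4. Its part in any member was not tested.

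Tlr4, the signalling receptor for endotoxin (ENSMUSG00000039005, chromosome 4, 66827584 to 66930284, plus strand), stood at 74.4, 51.8 and 48.4 CPM in the knock-out libraries, against 95.1, 119 and 94.6 CPM in wild-type libraries. The groups did not overlap, but the knock-out still held 56.5% of the wild-type mean, with a log2 fold change of -0.82 ± 0.20. Tlr2 (ENSMUSG00000027995, chromosome 3, 83836272 to 83841767, minus strand) stood at 10.2, 3.16 and 2.93 CPM in the knock-out libraries, against 2.50, 1.97 and 2.64 CPM in wild-type libraries. It was the only member with all knock-out values above all wild-type values, mostly through knock-out library 1. Its log2 fold change was 1.19 ± 0.54, and 0.36 ± 0.22 without that library.

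Genotypes did not overlap for 9 of the 10 members, 8 lower and 1 higher in the knock-out, where 25.5% and 24.3% of all tested genes lay wholly lower or wholly higher and 49.7% did either. The count test took in 9 members, all but Saa2, and Saa1 entered only through its wild-type reads. Of these 9, edgeR's quasi-likelihood test called 7 lower and left Ptx3 and Tlr2 uncalled, where 27.8% of all tested genes were called, 13.7% as lower and 14.1% as higher (adjusted p under 0.05). Leaving out 1 library gave 5 (without wild-type library 4) to 8 (without knock-out library 1) called members, and summing each nearly identical pair gave 1, Lbp. The members were chosen on this contrast, so nothing is read from these counts. Bulk RNA cannot tell fewer expressing cells from less RNA per cell, which holds for every level here.

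**Figure D2:**
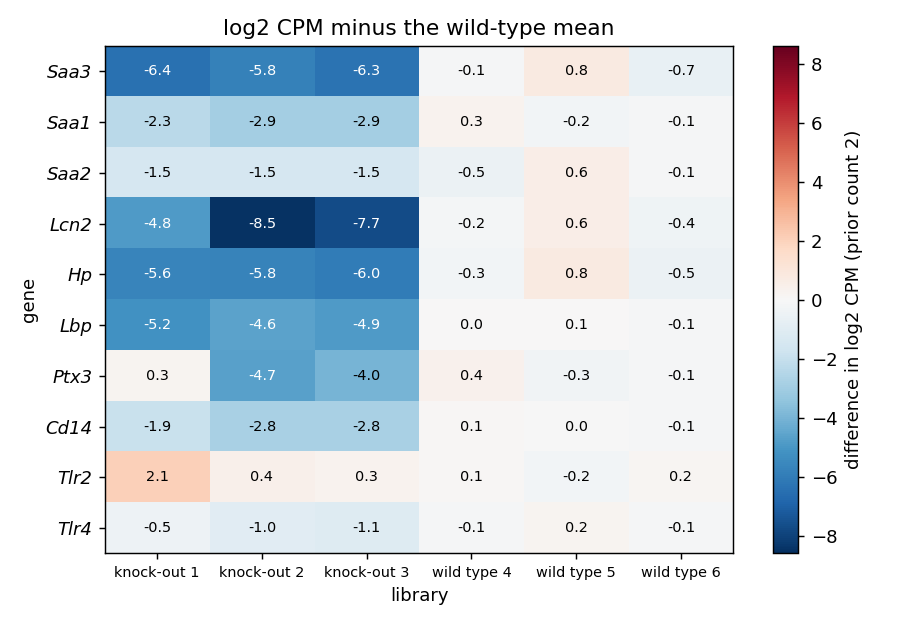
Difference of each library from the wild-type mean in log2 CPM (prior count 2) for each gene, with knock-out libraries on the left. Saa3, Hp and Lbp are low in all 3 knock-out libraries, with Saa3 and Lbp lowest in library 1 and Hp in library 3. Lcn2, Ptx3, Cd14 and Tlr4 are lower in libraries 2 and 3 than in library 1, and Tlr2 is highest in library 1. The small differences of Saa1 and Saa2 reflect the prior count at few reads.

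A middle number in the library titles is 1 for knock-out library 1 and wild-type library 5, and 2 for the other libraries. A further number, after the letter S, differs in every library. Knock-out libraries 1 and 2 also share the first part of their titles, as do wild-type libraries 5 and 6, and a number after the letter p is 11 for knock-out library 1 and wild-type libraries 4 and 5 and 12 for the others. The labels do not say what any of these mean, so the 3 libraries of a genotype may stand for fewer sources. Between the libraries with middle number 1, the difference in log2 CPM (knock-out minus wild type) was -7.18 for Saa3 and -6.41 for Hp. It was -5.41 for Lcn2 and -5.24 for Lbp. Between those with middle number 2 it was -5.70 for Saa3, -5.50 for Hp, -7.81 for Lcn2 and -4.70 for Lbp. Every knock-out value of these 4 genes, and of Cd14 and Tlr4, was below every wild-type value. Their sign was therefore fixed for any split of the libraries and is not support. The set with middle number 1 holds 1 library per genotype. Cd14 was at -1.91 and -2.81 in the sets with middle number 1 and 2, and Tlr4 at -0.68 and -0.92. Ptx3 had opposite signs, at 0.54 and -4.49, and Tlr2 stood at 2.31 and 0.24.

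Compared per exon length, the order of the members differed between genotypes. In the knock-out, Tlr4 came first at 9.69 ± 2.85 RPKM, followed by Lbp at 8.67 ± 1.46, Cd14 at 6.06 ± 2.67 and Saa3 at 5.68 ± 1.23 RPKM, and the ranges of neighbours in that order overlapped. In the wild type, Saa3 came first at 471 ± 233 RPKM, followed by Lbp at 268 ± 10.9 and Hp at 192 ± 95.1 RPKM, whose ranges overlapped with their neighbours in this trio (SD, n = 3 each). Lcn2 and Cd14 followed there at 41.0 ± 14.99 and 34.7 ± 2.15 RPKM, overlapping with each other, and then Tlr4 at 17.97 ± 2.34 RPKM. Together the 10 genes took 0.0151%, 0.0120% and 0.0104% of exon reads in knock-out libraries 1, 2 and 3, against 0.255%, 0.376% and 0.208% in wild-type libraries 4, 5 and 6.

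Other classes of reads from the same libraries were counted for the same genes. Intron reads, which come largely from unspliced RNA, numbered 5 for Saa3 over the knock-out libraries against 328 over the wild-type libraries, and 97 against 2267 for Lbp. At equal depth those are 1.65% and 4.63% of the wild-type level, beside 1.28% and 3.44% for exon reads. For Tlr4, a long gene in which a similar share of gene reads was intronic in either genotype (32.9% in knock-out and 33.1% in wild-type libraries), intron reads stood at 56.4% of the wild-type level. Reads spanning exon junctions of Saa3 numbered 762 in the knock-out and 63951 in the wild type. All these reads come from the same contrast and add no independent evidence.

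The genes whose pattern over the 6 libraries was most like each member were found by the largest gap in mean-centred log2 CPM in any library. For Saa3 these included Abi3bp (gap 0.34) and Cyp11a1 (0.37), and for Hp they were Npy4r (0.28), Cyp11a1 (0.38) and Abi3bp (0.45). Saa3 and Hp were also the closest pair among the members, at 0.58. For Lcn2 they were Syt13 (0.60), Prr15l (0.60) and the targeted gene Nt5e itself (0.75), and for Lbp Zbtb8b (0.28), Krt15 (0.40) and Rhpn2 (0.51). Cyp11a1 had no read in any knock-out library, and Lcn2, Syt13, Prr15l, Nt5e and Krt15 had few or none in knock-out libraries 2 and 3. Their log2 CPM there is set largely by the prior count of 2, so these gaps do not show that the genes vary together. Cd14 was nearest to Emx2 (0.14), Ypel2 (0.19) and Bcar3 (0.20). Tlr2 was nearest to Nanos1 (0.21), Ctnnal1 (0.24) and Apol9a (0.26). Tlr4 was nearest to Abhd5 (0.05), Naglu (0.05) and Isoc2b (0.06).

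Markers of other cell types were set beside these genes. The 9 mesothelial markers, of cells that line body cavities, summed to 195, 75.7 and 69.7 CPM in the knock-out libraries 1, 2 and 3, against 3099, 3037 and 3192 CPM in wild-type libraries 4, 5 and 6. Msln averaged 15.5 ± 24.7 CPM in the knock-out and 786 ± 18.7 CPM in the wild type, and Krt14, Upk3b and Wt1 were also lower in every knock-out library. This level was lower in the knock-out, as were Saa3, Lcn2, Hp, Lbp and Cd14, and its part in their difference was not tested. Among the knock-out libraries it was highest in library 1, where Lcn2, Hp and Cd14 were also highest but Saa3 and Lbp lowest. Wild-type library 5, highest in Saa3, Lcn2 and Hp, had the lowest of the wild-type mesothelial sums.

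Blood cells, which carry CD14 and Toll-like receptors, and hepatocytes, which make acute-phase proteins, were not seen by their defining markers. Ptprc, Adgre1, Itgam and Tyrobp had no read in any library. The 12 macrophage and leukocyte markers summed to 6.36 to 16.9 CPM in the knock-out and 4.59 to 7.22 CPM in the wild type, largely Lyz2 and Cd68. These went opposite ways, with Lyz2 at 10.7 ± 4.82 CPM in the knock-out and 1.80 ± 0.777 CPM in the wild type. Cd68 stood at 0.589 ± 0.208 and 3.00 ± 0.447 CPM. S100a9, Ly6g, Elane and Mpo of neutrophils had none either, and the 7 neutrophil markers summed to at most 0.0866 CPM in the knock-out libraries and 0.223 CPM in the wild type. Hnf4a, Cyp2e1, Fabp1 and Ttr of hepatocytes, and Adipoq, Plin1, Cfd and Cidec of adipocytes, were at 0 throughout. The 7 hepatocyte markers summed to 1.77 to 7.16 CPM in the knock-out and 1.16 to 3.62 CPM in the wild type. The 7 adipocyte markers summed to 6.06 to 15.9 and 3.48 to 4.07 CPM. Ahsg averaged 5.05 ± 3.36 CPM in the knock-out and 1.39 ± 0.574 CPM in the wild type, and Apob 0.287 ± 0.279 and 1.00 ± 0.879 CPM. Pparg averaged 10.8 ± 5.51 and 2.20 ± 0.365 CPM, and Fabp4 0.695 ± 0.563 and 1.63 ± 0.251 CPM. The 8 endothelial markers summed to 2.38 to 6.79 and 0.834 to 1.83 CPM. Fibroblast markers, led by Dcn and Col1a1, were high in both genotypes, with sums of 4094 to 5931 CPM in the knock-out and 3642 to 3762 CPM in the wild type.

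**Figure D3:**
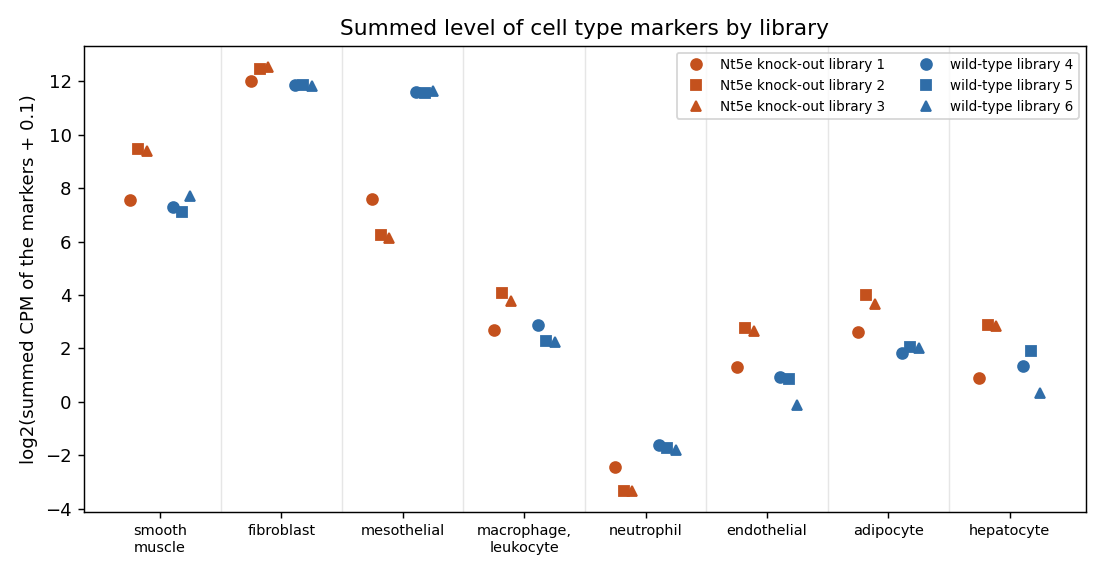
Summed CPM of each list of cell type markers in each library, as log2 of the sum plus 0.1. Orange points are knock-out libraries 1, 2 and 3 and blue points wild-type libraries 4, 5 and 6. The mesothelial sum lies at 69.7 to 195 CPM in the knock-out and 3037 to 3192 CPM in the wild type, and the neutrophil sum is near 0 in all libraries.

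No other acute-phase protein gene rose in the knock-out, and 5 of those tested fell. Of 30 further acute-phase genes, 11 had enough reads for the test, 5 fell and none rose (edgeR, adjusted p under 0.05), where 13.7% of all tested genes fell and 14.1% rose. The median log2 fold change of the 11 was -2.60, beside 0.02 for all tested genes. With each nearly identical pair summed, no gene of this list or of the other 4 lists described next passed in edgeR. All of these lists were chosen with earlier results of these data known, so their calls are not independent evidence. The 5 genes of this list that fell were Trf, Steap4, Cp, Itih4 and Serpina3g, the last 2 named after their values were seen. The list was not split by whether the acute phase raises or lowers each gene. Its falls are therefore not read as a weaker acute phase. Trf, transferrin, stood at 56.7, 20.1 and 19.0 CPM in the knock-out libraries, against 461, 397 and 432 CPM in wild-type libraries (log2 fold change -3.75 ± 0.49, adjusted p = 0.00526). Steap4, a metalloreductase, fell by 3.41 ± 0.52 (adjusted p = 0.00799). Cp, the copper ferroxidase ceruloplasmin, stood at 170, 23.4 and 16.4 CPM against 761, 701 and 727 CPM (-3.38 ± 0.96, adjusted p = 0.0468). The call of Cp ended with total-count scaling (adjusted p = 0.0508), and the calls of Cp and Itih4 ended without knock-out library 2 or 3 or any wild-type library (up to 0.123 and 0.0994). The metallothioneins Mt1 (-0.42, adjusted p = 0.216) and Mt2 (-0.85, adjusted p = 0.0890) did not pass. Liver genes such as Apcs, Fgg and Serpina3k had no read, and Fga and Fgb had none in the knock-out. In wild-type libraries 4, 5 and 6, Fga had 18, 0 and 14 reads and Fgb 11, 0 and 5. Mesothelial markers were also lower in the knock-out, and their part in the falls of this list was not tested.

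Among 26 genes of acute-phase signalling, 22 were tested, 8 fell and 2 rose, where 13.7% of all tested genes fell and 14.1% rose. Their median log2 fold change was -0.58, beside 0.02 for all tested genes. The mesothelial sum was 69.7 to 195 CPM in the knock-out and 3037 to 3192 CPM in the wild type. That is the direction of the 8 falls and opposite to the 2 rises, and its part in either was not tested. Socs3, the feedback inhibitor that STAT3 induces, stood at 31.5, 22.1 and 20.1 CPM in the knock-out libraries, against 155, 167 and 140 CPM in wild-type libraries (-2.65 ± 0.19, edgeR adjusted p = 0.00103). Jak2, a kinase of cytokine receptors, fell by 1.76 ± 0.13 on the log2 scale (0.00102), and Lif, a cytokine of the interleukin-6 family, by 1.31 ± 0.14 (0.00299), where parentheses give the edgeR adjusted p. The other falls, named after their values were seen, were Stat3 (-0.69), Cebpd (-1.30), Cebpb (-0.86), Osmr (-1.07) and Il1rn (-5.43, log2 fold changes). Il1rn, the interleukin-1 receptor antagonist, rested on 0, 3 and 0 reads in the knock-out libraries, against 18, 128 and 17 in the wild-type libraries, a level 50.2-fold lower in the knock-out with a 95% counting interval of 16.9 to 246. The rises were in Nr3c1, the glucocorticoid receptor (0.76 ± 0.17, adjusted p = 0.0254), and Il6ra, the interleukin-6 receptor (0.63 ± 0.13, adjusted p = 0.0209). The common receptor chain Il6st (0.18, adjusted p = 0.439) and the kinase Jak1 (0.25, 0.415) did not pass. Il6, the cytokine itself, had 39, 9 and 13 reads in the knock-out libraries, against 132, 26 and 100 in the wild-type libraries, overlapping groups (-2.03 ± 0.79, edgeR adjusted p = 0.105). Il1a had 1, 0 and 0 reads against 1, 4 and 4, Tnf had 1 in all, and Il1b and Osm had none. These cytokines were named after their values were seen. Calls of Cebpb, Il1rn and Nr3c1 ended without knock-out library 2 or 3 or any wild-type library (adjusted p up to 0.0724, 0.109 and 0.0939). The call of Il6ra ended without any wild-type library (up to 0.0757) and with total-count scaling (0.0551), that of Osmr without knock-out library 2 or wild-type library 4 or 6 (up to 0.0687), and that of Cebpd without knock-out library 2 or wild-type library 4 (up to 0.0572).

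Of 35 genes that carry the signal from endotoxin receptors into the cell, 30 were tested, 3 fell and 1 rose, where 13.7% of all tested genes fell and 14.1% rose. Their median log2 fold change was 0.00, beside 0.02 for all tested genes. The falls were in Irak3, an inhibitor of the pathway (-0.97 ± 0.18, edgeR adjusted p = 0.0152), Traf3, a ubiquitin ligase of the adaptor complexes (-0.47 ± 0.09, 0.0152), and Unc93b1, which brings Toll-like receptors to endosomes (-0.35 ± 0.08, 0.0257). Hsp90b1, the chaperone that folds Toll-like receptors, rose (0.39 ± 0.10, 0.0328). Tab2 (0.66, adjusted p = 0.0552) and Irak1 (-0.11, 0.417) did not pass. Ly96, which encodes MD-2, stood at 5.41, 6.50 and 5.69 CPM in the knock-out libraries, against 4.95, 7.81 and 4.63 CPM in wild-type libraries, overlapping groups. Calls of Unc93b1 and Hsp90b1 ended without knock-out library 2 or 3 or any wild-type library (up to 0.117 and 0.148), that of Irak3 without any wild-type library (up to 0.0686) and that of Traf3 without knock-out library 3 or wild-type library 4 or 6 (up to 0.0592).

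Of the 10 other Toll-like receptor genes, 5 were tested and only Tlr6, a partner of TLR2, passed, as a rise, where 27.8% of all tested genes were called. It had 25, 77 and 79 reads in knock-out libraries, against 10, 6 and 5 in wild-type libraries (3.24 ± 0.63, edgeR adjusted p = 0.0158), and was named after its values were seen. Tlr1, the other partner of TLR2, had 16, 87 and 77 reads against 20, 14 and 2, with knock-out library 1 in the wild-type range. Tlr3 (-0.55, adjusted p = 0.274) and Tlr5 (-1.84, 0.177) did not pass, and Tlr9, Tlr11 and Tlr12 had no read. The call of Tlr6 ended without knock-out library 2 or 3 or any wild-type library (up to 0.0743).

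The 20 genes listed as product partners are receptors and partners of the members' products together with related iron, haem and pentraxin genes. Of these, 12 were tested, 4 rose and none passed as a fall in edgeR, with a median log2 fold change of -0.08. DESeq2 called 2 of the list as falls and limma-voom 1. Calls in either direction were made for 27.8% of all tested genes, a share near that of this list. Hmox1, haem oxygenase 1, which breaks down the haem that haptoglobin helps to clear, stood at 241, 612 and 386 CPM in the knock-out libraries, against 60.9, 87.8 and 55.6 CPM in wild-type libraries (2.60 ± 0.38, edgeR adjusted p = 0.00717). Nptxr, a receptor of neuronal pentraxins (1.33 ± 0.23, 0.0116), and Lrp1, an endocytic receptor (1.16 ± 0.25, 0.0214), also rose. The fourth was Ftl1, ferritin light chain (0.95 ± 0.16, 0.0109), named after its values were seen, whereas Fth1, ferritin heavy chain (-0.07, 0.743), and Tfrc, the transferrin receptor (0.46, 0.304), did not pass. Among the receptors, Slc22a17 (-0.45, edgeR adjusted p = 0.248), Lrp2 (-0.95, 0.566) and Scarb1 (-0.68, 0.0936), named after their values were seen, did not pass. Selp, also named after its values were seen, had 196, 11 and 10 reads in the knock-out libraries, against 803, 1059 and 739 in the wild-type libraries. Its groups did not overlap, and it did not pass (-3.55 ± 1.07, edgeR adjusted p = 0.0555). Cd163, Cd36, Fpr2 and Ltf had no read in any library. The call of Lrp1 ended without knock-out library 2 or 3 or any wild-type library (up to 0.0934), that of Ftl1 without wild-type library 4 or 6 (up to 0.0642) and that of Nptxr without wild-type library 4 (0.0595).

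**Figure D4:**
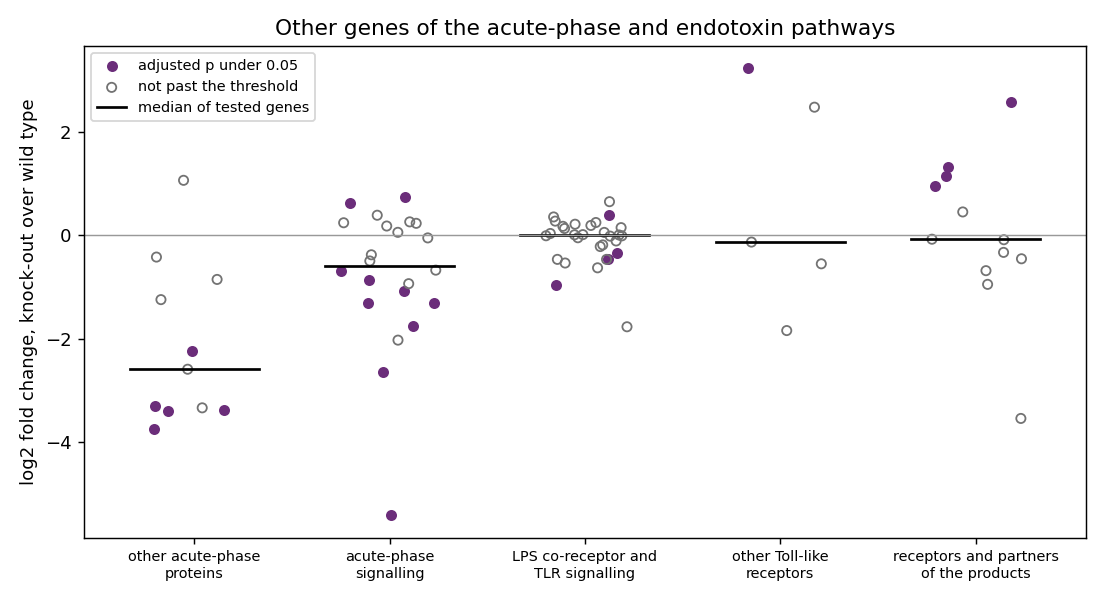
Fitted log2 fold change, knock-out over wild type, of each tested gene in the 5 lists of other pathway genes. Filled points passed an edgeR adjusted p of 0.05, open points did not, and bars are medians. The acute-phase proteins have a median of -2.60 and the signalling genes downstream of Toll-like receptors one of 0.00.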

How the data were processed

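RNA was measured in 6 libraries, 3 per genotype, made from poly(A)-selected RNA with a stranded kit per the labels' protocols. The deposited table holds whole-number read counts per gene and library made by the authors, of exon, unique exon, junction and intron reads, and an RPKM that the authors scaled by exon length and depth. Coordinates are on GRCm38 (mm10), which the submitters' processing notes name. Aligner, counting tool and strand handling: not given in the sources used here. Groups follow the labels. The 10 genes and all lists were chosen with earlier results of these data known.

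Exon reads of the 12660 genes kept by filterByExpr (minimum count 10) were scaled by TMM and tested with edgeR 4.0.16 in R 4.3.3, with the quasi-likelihood F test. Genotype was the sole term, and p-values were adjusted by Benjamini-Hochberg over all tested genes at 0.05. The standard error is the log2 fold change divided by the square root of F. Levels per library are CPM, with a prior count of 2 on the log2 scale. RPKM served for levels between genes and was not tested. A genotype without a read was set at 3 reads in all, which makes the fold a bound. Genotypes with 1 to 3 reads got a ratio and its exact 95% interval from the binomial distribution. Promoter windows are from RefSeq's GRCm38.p6 and were found for 6 of the 10 members.

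Named genes follow a rule: Nt5e, all members, from each pathway list up to 3 rises and 3 falls of largest size among genes averaging 50 reads or more and 2 abundant genes not called, from marker lists the 2 most abundant and those at 0, and the 3 genes nearest in pattern to each member with at least 50 reads. Some genes that the rule names are not reported here. Exceptions are stated as named after their values were seen, and include Myh11, Des, Myocd, Tagln, Cnn1, Krt14, Upk3b, Wt1, Ly96, Tlr1 and genes with few or no reads. Alternatives were scaling by total counts or by DESeq2 size factors, no filter on low counts, 50 reads in 3 libraries, DESeq2 1.42.0, limma-voom (limma 3.58.1), unique exon reads, leaving out each library, and both nearly identical pairs summed. A block for the middle number or the p number of the titles was added after seeing the data. Plots used matplotlib 3.10.9.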

Additional observations from a re-analysis of the deposited data

How the results depend on the processing

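The log2 fold changes of Saa1, Saa3, Lcn2, Hp, Lbp, Cd14, Tlr2 and Tlr4 kept their sign in every alternative that gave a value, and so did Ptx3, whose value ranged from -6.23 to -0.70. Ranges were -6.57 to -5.82 for Saa3, -8.98 to -5.78 for Lcn2, -6.17 to -5.44 for Hp, -5.02 to -4.73 for Lbp, -2.83 to -2.30 for Cd14, 0.36 to 1.53 for Tlr2 and -1.05 to -0.71 for Tlr4. With each nearly identical pair summed, leaving 2 samples per genotype, edgeR called 17 of 13041 genes (2640 at an unadjusted p under 0.05). It then called 0 genes of the lists of acute-phase proteins, acute-phase signalling, endotoxin signalling, other Toll-like receptors and product partners, of which 4, 10, 2, 1 and 4 had an unadjusted p under 0.05. DESeq2 called 8 acute-phase proteins, 7 endotoxin signalling genes and 2 other Toll-like receptors, against 5, 4 and 1 in edgeR (37% and 27.8% of all genes passed). In edgeR with at least 50 reads in 3 libraries, which left 2 of the other Toll-like receptors to test, 0 of them passed and 0 had an unadjusted p under 0.05. In limma-voom the 1 call among the other Toll-like receptors was a fall, of Tlr5. Leaving out 1 library moved the count over all genes between 1120 (without wild-type library 4) and 8486 (without knock-out library 1). It moved acute-phase proteins between 3 and 10, acute-phase signalling between 4 and 17, endotoxin signalling between 0 and 17, other Toll-like receptors between 0 and 5 and product partners between 1 and 11. The highest of each came without knock-out library 1, where 66.2% of all genes passed. Total-count scaling made 40.1% of calls rises, against 50.7%. Fth1, which did not pass, ranged from -0.24 (without knock-out library 1, where it passed) to 0.0106 (without knock-out library 3) when 1 library was left out, and was 0.000125 with pairs summed and 0.00681 with the p number as a block; the cause was not tested. The sample numbers pair no libraries across genotypes. As a replicate block, chosen after seeing the data, the middle title number gave 4510 calls over all genes and 8 among the endotoxin signalling genes. Tab2 then passed (edgeR adjusted p = 0.0301). The p number as a block gave 3122 calls over all genes and ended the call of Hsp90b1 (edgeR adjusted p = 0.0608). Over 12660 genes, deviations of same-numbered libraries correlated at -0.02 for the middle number and at 0.00087 for the p number. Neither number is thus shown to pair the libraries. Depth limits Saa1, Saa2 and Ptx3, which rest on few reads.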
